A study of Mus musculus with 96 samples.

Results

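Msi1, Nes and Ncam1, 3 genes best known from neural stem and progenitor cells, were measured among 96 assays by single-cell quantitative PCR of 96 cells from the mouse uterus. The assays were picked by name: msi1 by its symbol, cd56 through the CD name of Ncam1, and nestin through the name of the protein that Nes encodes. The cells came from uteri of mice at postnatal day 7 that had been dissociated with collagenase, and each, sorted as positive for the epithelial surface protein CD326 (EpCAM), was placed in a well of its own. The labels give 1 group, with no strain, treatment, control or count of animals, so cells of that group were not treated as replicates and no test between groups was made. Which of these cells carry the 3 genes, how much of each they carry, and which other genes are found in the same cells are described here.

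Msi1 encodes Musashi-1, an RNA-binding protein that holds back the translation of target mRNAs such as that of the Notch inhibitor Numb. It marks neural stem cells and intestinal crypt cells, and in human endometrium it has been studied as a progenitor marker. Nes encodes nestin, an intermediate filament protein of neural progenitors that is also made in other growing tissues and that assembles with vimentin. Ncam1 encodes an adhesion molecule of the immunoglobulin family that binds its own kind on neighbouring cells, as on neurons and glia. All 3 are therefore used as marks of immature or neural cells, and none is specific to the nervous system.

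A gene was called detected when its cycle threshold (Ct, the PCR cycle at which product appears, so that a lower Ct means more template) was below 28. By this rule 52.6% of the 9216 values were detected, and a cell detected a median of 54 assays, with a range of 9 to 78. In 8 cells Gapdh, the reference gene for template, had a Ct above 18 or none, and these cells detected 9 to 30 assays. None of the 8 carried Msi1, Nes or Ncam1, and 0 of 8 allows a share of up to 37.5%. Cell 67, 1 of these 8, had no Ct in any of the first 71 assays of the table, where Msi1 stands at position 56, Nes at 68 and Ncam1 at 27, so its 3 blanks cannot be read as missing transcripts. Without cell 67 the shares of cells were 61.1%, 24.2% and 52.6% of 95, and the limit for cells with little Gapdh would lie above 37.5%. Cell 67 also counts below among the 22 cells without Epcam, whose assay lies in the same block, and among the 27 with none of the 3 genes.

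Msi1 was detected in 58 of 96 cells, or 60.4% (exact 95% interval 49.9 to 70.3%). Ncam1 was detected in 50 cells, 52.1% (interval 41.6 to 62.4%), and Nes in 23 cells, 24.0% (interval 15.8 to 33.7%). The intervals cover counting error only. Those of Msi1 and Ncam1 overlap over most of their width, and that of Nes lies below both. In the order of all 96 assays by share of cells, Msi1 ranked 42, Ncam1 51 and Nes 75. The assays next to Msi1 were Cd55, a complement regulator gene found in 61 cells, and Lgr6, Ptprc and Sall4, each found in 57. Ncam1 stood between Wnt7a in 52 cells and Cd34 in 49, and Nes between Lrig1 in 24 and Tbx3 in 22.

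In the cells that carried it, Msi1 had a lowest Ct of 15.2, a median of 18.9 and a highest of 24.4, with a mean of 18.9 ± 1.85 (SD, n = 58 cells). The latest Ct belonged to cell 58, and every other Msi1 cell came at 21.5 or earlier. Ncam1 ran from 15.6 over a median of 19.8 to 23.4, with a mean of 19.8 ± 1.88 (SD, n = 50 cells). Nes covered a narrower range, from 19.7 over a median of 21.4 to 23.8, with a mean of 21.6 ± 1.09 (SD, n = 23 cells). Ct values of different assays depend on primers whose efficiency is not given in the sources used here, so the 3 genes are not ranked by level.

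Detection of the 3 genes was an all-or-none readout. The cells without them (38 for Msi1, 73 for Nes and 46 for Ncam1) had no Ct at all, and no value lay between 24.4 and the fill value of 40. A Ct limit of 24 would remove 1 Msi1 cell and no Nes or Ncam1 cell. Calls with a Ct of 24 or above made up 1.72% of the Msi1 calls, and the median over 83 other assays found in at least 10% of cells was 2.35%. In this the 3 genes resembled much of the panel, since 40 of those 83 assays had at most 2% of such late calls.

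**Figure D1:**
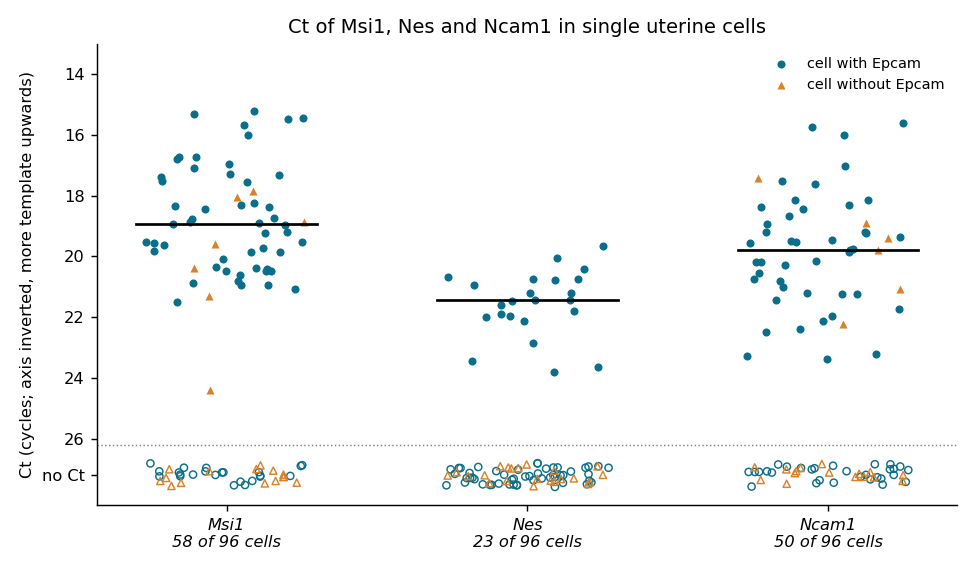
Ct of Msi1, Nes and Ncam1 (inverted axis, in cycles), with 1 point for each of 96 cells. Filled points are cells with a Ct, open points in the lowest row are cells with none, black lines are medians of the detecting cells, and triangles are cells without Epcam. Nes values lie between 19.7 and 23.8, and none of the Nes cells is a triangle.

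Levels of all 3 followed that of Gapdh in the cell. Over the 58 detecting cells, the Ct of Msi1 was related to the Ct of Gapdh with Spearman rho = 0.62 and Pearson r = 0.57, and with r = 0.59 once the 2 cells farthest from the median Gapdh Ct were dropped. For Nes the values were 0.65, 0.65 and 0.66 in 23 cells, and for Ncam1 0.65, 0.64 and 0.68 in 50 cells. The median rho over 82 other assays was 0.51. No p is given here or below, because cells of 1 group share their source. With the Ct of Gapdh in the same cell subtracted, the means were 6.29 ± 1.60 cycles for Msi1, 7.01 ± 1.56 for Ncam1 and 9.45 ± 1.17 for Nes (SD over the same cells).

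Detection followed Gapdh too, and 18 of the 23 Nes cells were among the 32 cells with most assays detected. In the 48 cells with the lowest Gapdh Ct, Msi1 was found in 39 (81.2%), and in the other 48 in 19 (39.6%). Nes was found in 19 (39.6%) of the 48 cells with low Gapdh Ct and in 4 (8.33%) of the others, and Ncam1 in 33 (68.8%) and 17 (35.4%). The difference for Ncam1, 33.3 points, was 14.6 points among the 63 cells with Gapdh, actin and Hprt all detected, and that for Nes, 31.2 points, was 18.6 points without the 10% of cells with most genes detected. Cells were also divided into 3 classes of 32 by how many of the other 93 assays they detected. Msi1 was present in 12, 18 and 28 cells of the shallowest, middle and deepest class, or 37.5%, 56.2% and 87.5%. Ncam1 was present in 12, 14 and 24 cells, or 37.5%, 43.8% and 75.0%. Nes was present in 2, 3 and 18 cells, or 6.25%, 9.38% and 56.2% (interval in the deepest class 37.7 to 73.6%). Fewer cells with a gene and less template per cell cannot be told apart by these shares.

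**Figure D2:**
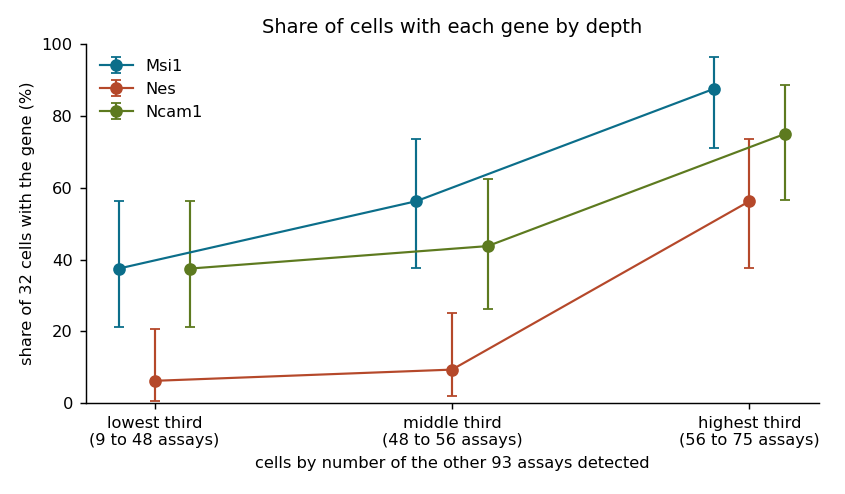
Share of cells (%) with Msi1, Nes and Ncam1 in 3 classes of 32 cells, ordered from fewest to most of the other 93 assays detected. Points are shares and bars are exact 95% intervals. Nes stands at 6.25% and 9.38% in the first 2 classes and at 56.2% in the deepest.

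Nes lay almost wholly inside Msi1, while Msi1 and Ncam1 overlapped in part and each also occurred alone. At least 1 gene was found in 69 cells (71.9%, interval 61.8 to 80.6%), at least 2 in 45 (46.9%) and all 3 in 17 (17.7%, interval 10.7 to 26.8%). Of the 23 Nes cells, 22 also carried Msi1 (95.7%, interval 78.1 to 99.9%), while 36 of the 73 cells without Nes carried it (49.3%, interval 37.4 to 61.3%). The exception was cell 31, which carried Nes and Ncam1. Of the assays next to Msi1 in share, Cd55 was found in 20 Nes cells, Lgr6 and Ptprc in 16 and Sall4 in 14. Hprt and Itga6, found in 66.7% and 70.8% of all cells, were in all 23, so such overlap was not particular to Msi1. No cell carried Nes alone, and 0 of 96 allows a share of up to 3.12%. Msi1 alone was found in 14 cells, Ncam1 alone in 10, Msi1 with Ncam1 but not Nes in 22, and Msi1 with Nes but not Ncam1 in 5. The other 27 cells, among them the 8 cells with little Gapdh, had none of the 3.

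Ncam1 was shared more loosely. Msi1 was found in 39 of 50 Ncam1 cells (78.0%, interval 64.0 to 88.5%) and in 19 of 46 cells without Ncam1 (41.3%, interval 27.0 to 56.8%). Nes was found in 18 of the 50 (36.0%, interval 22.9 to 50.8%) and in 5 of the 46 (10.9%, interval 3.62 to 23.6%). Cells with all 3 genes detected a median of 59 of the other 93 assays, with a range of 44 to 75, and the 27 cells with none detected a median of 43, with a range of 9 to 56.

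**Figure D3:**
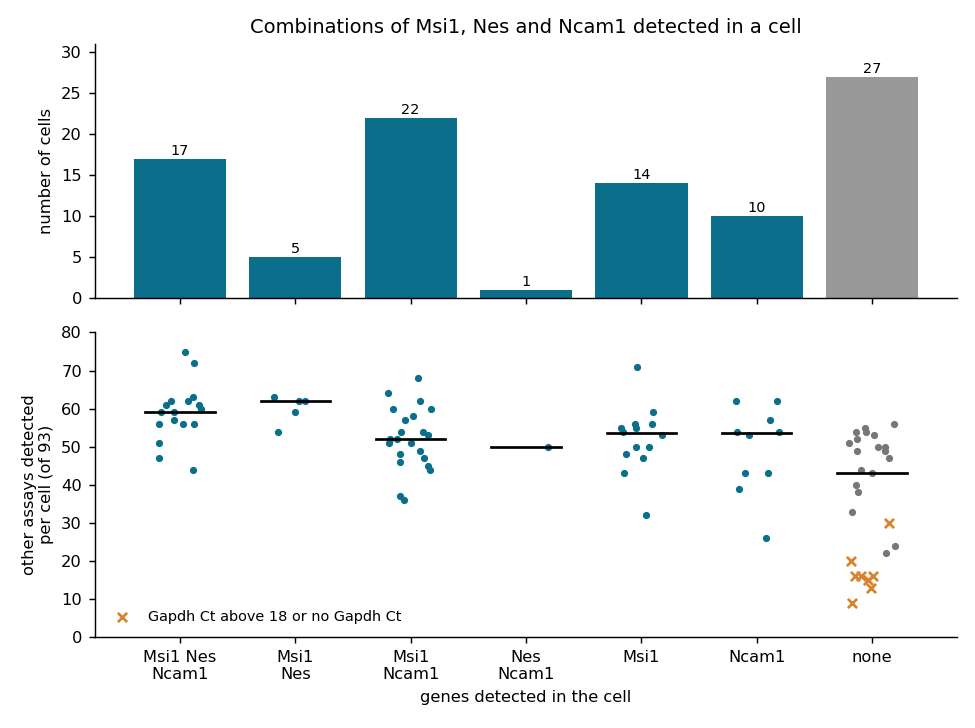
Number of cells (upper panel) with each combination of Msi1, Nes and Ncam1, and number of the other 93 assays detected in each of those cells (lower panel, 1 point per cell, black lines for medians, crosses for cells with little or no Gapdh). All 8 crosses are among the 27 cells with none of the 3 genes.

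Averaged over classes of depth the overlaps were smaller than over all cells, and single classes held few cells. In the deepest class Msi1 was found in 18 of 18 Nes cells and in 10 of 14 cells without Nes. In the middle class it was found in 2 of 3 and in 16 of 29, and in the shallowest in 2 of 2 and in 10 of 30. Averaged over the classes with Mantel-Haenszel weights, Msi1 was 30.6 percentage points more frequent in Nes cells than in other cells, in place of 46.3 without classes. Between Ncam1 cells and cells without Ncam1 the difference in Msi1 was 26.3 points within classes and 36.7 without. By class, Msi1 was found in 8 of 12 Ncam1 cells and 4 of 20 cells without Ncam1 in the shallowest. In the middle class it was found in 10 of 14 and 8 of 18. In the deepest it was found in 21 of 24 and 7 of 8, and both shares were 87.5%. Depth was not matched in the shallowest class, where Ncam1 cells detected a median of 43.5 other assays and cells without Ncam1 31. The medians were 52 and 53 in the middle class, and both were 60.5 in the deepest. Differences within classes, here and below, can therefore still include depth.

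Levels of the 3 genes were weakly related after a linear fit on depth was subtracted. The level was 28 minus Ct, with 0 for a cell without a Ct, and a linear fit on the number of assays detected was subtracted. Over 96 cells, rho was then 0.28 and r 0.28 between Msi1 and Ncam1, with r = 0.35 once the 2 cells farthest from the median of Msi1 were dropped. Between Msi1 and Nes, rho was 0.22 and r 0.30 (0.27 after the same step). Between Nes and Ncam1, rho was 0.15 and r 0.18, with r = 0.15 once the 2 cells farthest from the median of Nes were dropped. In the 22 cells with both Msi1 and Nes, Ct minus that of Gapdh gave rho = 0.49 and r = 0.53. The same Gapdh Ct was subtracted from both genes. Over all 96 cells, here and below, cells without a Ct differed after the fit only by depth. Values of rho, which rank such cells, can therefore still carry depth. Nes and Tbx3, for example, had rho = 0.24 and r = 0.02.

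Cells with the 3 genes carried transcripts of epithelium, and keratin transcripts were common in the other cells too. Epcam, the gene of the sorted antigen, was detected in 51 of 58 Msi1 cells (87.9%), 23 of 23 Nes cells and 44 of 50 Ncam1 cells (88.0%), and in 74 of all 96 cells. Counted the other way, Msi1 was found in 51 of 74 cells with Epcam (68.9%, interval 57.1 to 79.2%) and in 7 of 22 without (31.8%, interval 13.9 to 54.9%). Nes was found in 23 of the 74 (31.1%, interval 20.8 to 42.9%) and in 0 of the 22, which allows up to 13.6% by the limit of 3 counts. Ncam1 was found in 44 of the 74 (59.5%) and in 6 of the 22 (27.3%). With a Ct limit of 24 for all assays, Epcam was found in 84.2% of Msi1 cells, 95.7% of Nes cells and 78.0% of Ncam1 cells. Cell 93, a Nes cell, had an Epcam Ct of 24.6, so the absence of Nes cells without Epcam depends on the limit. Cells with Epcam detected a median of 54 of the other 93 assays and cells without it 45. The keratin gene Krt18 was found in 57 of the Msi1 cells, all 23 Nes cells and 49 of the Ncam1 cells. Krt19 was found in every cell with any of the 3 genes. In cells without Msi1, Nes or Ncam1 in turn, Krt18 was found in 34 of 38, 68 of 73 and 42 of 46. There Krt19 was found in 35, 70 and 43. Pecam1, an endothelial marker gene, had the same counts as Krt19 in each of these sets of cells.

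**Figure D4:**
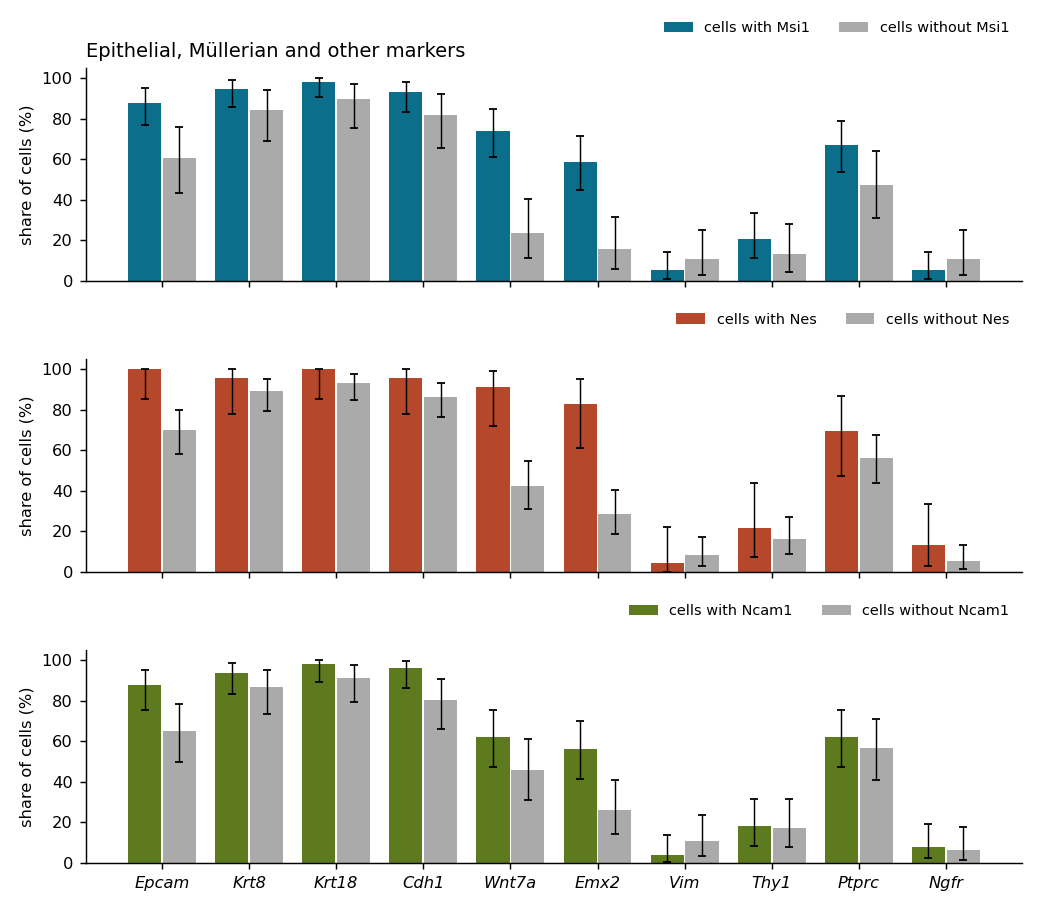
Share of cells (%) with 10 marker genes, for cells with (coloured bars, left) and without (grey bars, right) Msi1, Nes or Ncam1. Error bars are exact 95% intervals. Wnt7a and Emx2 differ most between the bars for Msi1 and Nes, while Vim and Ngfr stay under 15% in each set of cells.

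To set other assays beside the 3 genes, the share of each was compared between cells with and cells without a gene, over the 75 assays found in 10% to 90% of cells, and a difference of at least 20 percentage points was counted. Most assays were more frequent in cells with the gene, 73 of 75 for Msi1, 69 for Nes and 67 for Ncam1, and those cells also had more assays detected in all. Medians of the other 93 assays were 55.5 in cells with Msi1 and 45.5 without, 59 with Nes and 50 without, and 54 with Ncam1 and 50 without. The median difference was 17.6 points for Msi1, 14.6 for Nes and 13.7 for Ncam1. For Msi1, 29 of 75 assays were at least 20 points more frequent (38.7%), for Nes 24 (32.0%) and for Ncam1 17 (22.7%), and none was 20 points less frequent (0.00%). Within classes of depth the numbers were 14 (18.7%), 14 (18.7%) and 7 (9.33%), and the median differences 7.29, 3.51 and 7.02 points. Within classes 1 assay was at least 20 points less frequent for Msi1 (1.33%, Itgae), 2 for Nes (2.67%, Dpp4 and Mst1r) and none for Ncam1 (0.00%).

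Of the genes listed for the Müllerian duct, from which the uterus arises, Wnt7a and Emx2 differed most for Msi1 and Nes, followed by Pax2. Wnt7a, which encodes a secreted WNT signal made by uterine epithelial cells, was present in 43 of 58 Msi1 cells (74.1%) and in 9 of 38 cells without Msi1 (23.7%), a difference of 50.5 points and of 40.7 within classes of depth. It was found in 21 of 23 Nes cells (91.3%) and in 31 of 73 cells without Nes (42.5%), a difference of 48.8 points and of 34.3 within classes. The homeobox gene Emx2 was found in 34 of 58 Msi1 cells (58.6%) and 6 of 38 others (15.8%), and in 19 of 23 Nes cells (82.6%) and 21 of 73 others (28.8%). Within classes the differences of Emx2 were 23.5 points for Msi1 and 30.7 for Nes. Pax2 was found in 35 of 58 Msi1 cells (60.3%) and 8 of 38 others (21.1%), a difference of 39.3 points and of 21.9 within classes. It was found in 17 of 23 Nes cells (73.9%) and 26 of 73 others (35.6%). The difference was 38.3 points, and 11.5 within classes. Of 43 Pax2 calls, 17 (39.5%) had a Ct of 24 or above, and its differences were not recomputed at a lower limit. Among the 74 cells with Epcam alone, Wnt7a differed by 47.6 points for Msi1 and 34.4 for Nes, and Emx2 by 45.4 and 49.3 points.

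Of the 6 genes of this list within the 10% to 90% band, 3 passed 20 points for Msi1 (Wnt7a, Emx2 and the paired-box gene Pax2), the same 3 for Nes, and Emx2 alone for Ncam1, where 38.7%, 32.0% and 22.7% of all assays passed. Within classes of depth 3, 2 and 0 of the 6 passed, where 18.7%, 18.7% and 9.33% of all assays did. The Hox genes Hoxa10, Hoxa11 and Hoxa13 did not pass for any of the 3 genes. Hoxa13 was found in 44.8% of Msi1 cells and 26.3% of cells without Msi1, and in 39.1% of Nes cells and 37.0% of cells without Nes. Hoxa10 was found in 8 of 58 Msi1 cells and 3 of 38 others, and in 5 of 23 Nes cells and 6 of 73 others. Lhx1, a LIM homeobox gene, lay below the band, in 3 of 58 Msi1 cells and 3 of 38 others. Hoxa11, a Hox gene of the uterus, was found in 31.0% of Msi1 cells and 28.9% of cells without Msi1, and in 26.1% of Nes cells and 31.5% of cells without Nes. For Ncam1 the difference in Wnt7a was 16.3 points, with 31 of 50 cells against 21 of 46, and 4.37 points within classes.

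Over all cells, other genes used as marks of neural progenitors passed 20 points about as often as the panel at large. Of 17 such genes 9 were measured, and 6 lay in the band. For Msi1, 2 of the 6 passed 20 points, namely Prom1 (CD133, a membrane glycoprotein gene) with 53.4% of Msi1 cells and 18.4% of the others, and the integrin gene Itgb1 with 96.6% and 68.4%. For Nes, 2 passed, Prom1 with 69.6% of Nes cells and 30.1% of the others, and Sox9, a transcription factor gene of neural and glandular progenitors, with 56.5% and 34.2%. For Ncam1 only Itgb1 passed, with 98.0% of Ncam1 cells and 71.7% of the others. Against 38.7%, 32.0% and 22.7% of all assays, these counts over all cells lay near the background. Within classes of depth 2, 1 and 1 of the 6 passed, beside 18.7%, 18.7% and 9.33% of all assays. Those were Prom1 and Itgb1 for Msi1 (24.8 and 20.9 points), Prom1 for Nes (26.7) and Itgb1 for Ncam1 (21.9). Sox2, a transcription factor gene of neural stem cells, was found in 16 of 58 Msi1 cells (27.6%) and 10 of 38 others (26.3%), in 8 of 23 Nes cells (34.8%) and 18 of 73 others (24.7%), and in 17 of 50 Ncam1 cells (34.0%) and 9 of 46 others (19.6%).

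Vim, the gene of nestin's filament partner vimentin, was rare in the same cells. It was detected in 3 of 58 Msi1 cells (5.17%) and 4 of 38 others (10.5%), in 1 of 23 Nes cells (4.35%) and 6 of 73 others (8.22%), and in 2 of 50 Ncam1 cells (4.00%) and 5 of 46 others (10.9%). Keratin genes were common in cells with and without Nes. Krt18 was found in 23 of 23 Nes cells and 68 of 73 others, Krt19 in 23 and 70, Krt8 in 22 and 65, and Krt15, a keratin of basal layers, in 15 and 41. Of the 5 filament genes measured only Krt15 lay in the band, and it did not pass 20 points for any of the 3 genes.

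Only Ngfr, the low-affinity neurotrophin receptor gene, was measured of 8 markers of neurons and glia. It was detected in 3 of 58 Msi1 cells and 4 of 38 others, in 3 of 23 Nes cells and 4 of 73 others, and in 4 of 50 Ncam1 cells and 3 of 46 others. Genes such as Tubb3 and Sox10, which define neurons and glia, were not analysed here, so the panel cannot show whether a cell was neural.

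Few markers of other cell types passed 20 points. Of the 5 stromal and muscle markers in the band 1 passed 20 points for each gene, the nucleotidase gene Nt5e for Msi1 and Ncam1 and the peptidase gene Mme for Nes, beside 38.7%, 32.0% and 22.7% of all assays. Within classes of depth 0, 0 and 1 of the 5 passed, the 1 being Nt5e for Ncam1 at 20.2 points. Of the endothelial markers in the band, Cd34 and Eng, none passed, and Pecam1 lay above the band, in 96.9% of all cells. Of the immune markers Ptprc and Cd40 none passed. Ptprc (CD45, the common leukocyte antigen gene) was nonetheless detected in 39 of 58 Msi1 cells and 18 of 38 others, in 16 of 23 Nes cells and 41 of 73 others, and in 31 of 50 Ncam1 cells and 26 of 46 others. The summed level of the 6 measured stromal markers ran from 14.6 over a median of 30.9 to 45.5 in Nes cells, and from 0 over 24.3 to 43.3 in cells without Nes. In Msi1 cells it ran from 8.69 over 28.4 to 45.5, and in cells without Msi1 from 0 over 23.1 to 36.8. In Ncam1 cells it ran from 9.92 over 27.8 to 45.5, and in cells without Ncam1 from 0 over 24.8 to 41.9. Every measured marker of these types was found in at least 1 cell with each of the 3 genes, and their part in the differences was not tested.

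Genes of epithelial stem cells in other organs passed 20 points at shares near those of all assays. Of 12 such genes in the band, 5 passed 20 points for Msi1: Itga6, Prom1, Lgr4, Hopx and Lgr5. Lgr5, the R-spondin receptor gene that marks intestinal crypt stem cells, was found in 17 of 58 Msi1 cells (29.3%) and 3 of 38 others (7.89%), and its difference within classes of depth was 15.2 points, below the limit. For Nes 5 passed as well, Prom1, Itga6, Hopx, Lgr4 and Sox9, and for Ncam1 2, Itga6 and Lgr4, beside 38.7%, 32.0% and 22.7% of all assays. The share of Hopx, a homeodomain protein gene of slow-cycling crypt cells, was 65.2% in Nes cells and 28.8% in other cells, and this difference was 36.3 points within classes of depth. Within classes 2, 3 and 0 of the 12 passed, beside 18.7%, 18.7% and 9.33% of all assays. Mki67, a gene of cycling cells, was found in 37.9% of Msi1 cells and 18.4% of others, in 39.1% of Nes cells and 27.4% of others, and in 34.0% of Ncam1 cells and 26.1% of others, and neither it nor Myc passed 20 points.

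Of 5 adhesion genes in the band (Epcam, Cdh1, Alcam, Mcam and Cd44), only Epcam passed, for each of the 3 genes, beside 38.7%, 32.0% and 22.7% of all assays. Within classes of depth 0 of the 5 passed, and Epcam differed by 18.2 points for Msi1, 17.3 for Nes and 14.9 for Ncam1. Cdh1, the gene of E-cadherin, was found in 48 of 50 Ncam1 cells (96.0%) and 37 of 46 others (80.4%). Alcam, an adhesion gene of the immunoglobulin family as Ncam1 is, was found in 41 of 50 (82.0%) and 38 of 46 (82.6%).

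**Figure D5:**
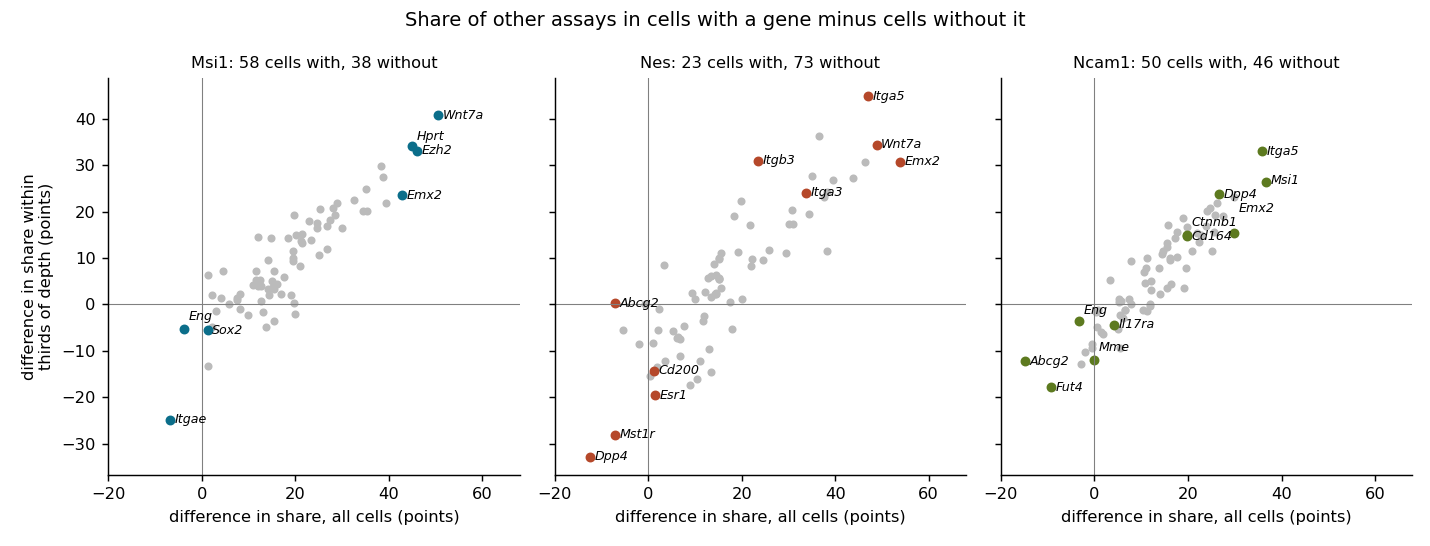
Difference in share of cells (percentage points) between cells with and cells without Msi1, Nes or Ncam1 for the 75 assays found in 10% to 90% of cells, over all cells (horizontal axis) and averaged within 3 classes of depth (vertical axis). Coloured points are the named assays. Most points lie right of 0, and Wnt7a is at 50.5 and 40.7 points for Msi1.

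By level, with the fit on depth subtracted, the assay most like Msi1 among 85 was Hprt (rho = 0.52, r = 0.50 over 96 cells). Hprt, a purine salvage gene, served here as a reference gene with Gapdh and actin. Hprt was followed by the Polycomb gene Ezh2 (rho = 0.49, r = 0.46), Emx2 (0.48 and 0.45), Cd24a (0.43 and 0.34) and Wnt7a (0.42 and 0.44). Ezh2 was found in 48 of 58 Msi1 cells (82.8%) and 14 of 38 others (36.8%). At the low end stood Itgae, an integrin gene (rho = -0.38, r = -0.31), and Pecam1 (rho = -0.29, r = -0.27). Itgae was found in 19 of 58 Msi1 cells (32.8%) and 15 of 38 others (39.5%), 24.8 points less often within classes of depth. Hprt was found in 49 of 58 Msi1 cells (84.5%) and 15 of 38 others (39.5%). The Ct of Hprt was related to that of Gapdh with rho = 0.77 and the Ct of actin with 0.79. The median over 82 other assays was 0.51, and the part of template in these likenesses was not tested.

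No assay reached a rho of 0.4 with Nes or Ncam1, whereas 8 did with Msi1. The highest for Nes were actin (rho = 0.36, r = 0.30), the integrin genes Itga5 (0.36 and 0.33) and Itgb3 (0.36 and 0.33), Krt18 (0.34 and 0.27) and the integrin gene Itga3 (0.34 and 0.35). Itga5, which encodes a subunit of a fibronectin receptor, was found in 19 of 23 Nes cells (82.6%) and 26 of 73 others (35.6%), a difference of 47.0 points and of 44.8 within classes of depth. Cd200 (rho = -0.38, r = -0.27) and the estrogen receptor gene Esr1 (-0.28 and -0.24) were lowest. Dpp4, a surface peptidase gene, had the lowest difference in share for Nes, with 5 of 23 cells (21.7%) and 25 of 73 others (34.2%), and within classes it was 32.8 points less frequent. Mst1r and Abcg2 were each found in 5 of 23 Nes cells and 21 of 73 others.

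For Ncam1 the highest values were those of Emx2 (rho = 0.32, r = 0.33), Ctnnb1, the beta-catenin gene (0.31 and 0.23), Cd164 (0.29 and 0.19), Msi1 (0.28 and 0.28) and Dpp4 (0.26 and 0.25). Dpp4, low in share with Nes, was found in 22 of 50 Ncam1 cells (44.0%) and 8 of 46 others (17.4%). Il17ra (rho = -0.20, r = -0.16) and Mme (-0.18 and -0.20) were lowest. Itga5 was among the 3 assays with the largest difference in share for Ncam1, in 32 of 50 cells (64.0%) against 13 of 46 (28.3%). The lowest difference in share for Ncam1 was that of Abcg2, found in 10 of 50 cells (20.0%) and 16 of 46 others (34.8%), followed by Fut4 in 16 (32.0%) and 19 (41.3%). Eng was found in 6 of 50 Ncam1 cells and 7 of 46 others, and in 7 of 58 Msi1 cells and 6 of 38 others.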

How the data were processed

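Single cells were lysed, preamplified by 1-step reverse transcription PCR and measured with a DNA dye on a microfluidic chip, per the labels' protocols. The authors deposited raw Ct values, treated here as a score per cell and assay with no normalization, in which 40 stands for no Ct. They also deposited a ratio table of folds relative to a housekeeping gene and to cell 1, per the file headers. Folds recomputed from the Ct table with Gapdh as that gene differed from it by at most 6.55e-06 on the log2 scale. Nothing used here gives the threshold settings, filters or primers.

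Detection was a Ct below 28. Shares have exact (Clopper-Pearson) 95% intervals, and a share of 0 a limit of 3 counts. Depth per cell is the number of assays detected, and classes of depth break ties by cell number. All 96 cells were kept and no doublets were removed. No 2 cells shared an identical recorded Ct. The members and lists were chosen with earlier results of these data known. For each gene the 5 assays of highest and 2 of lowest rho, and the 3 of highest and 3 of lowest difference in share, were named, with neighbours in share and listed genes. The limit of 20 points and the depth classes for other assays were chosen after values were seen. Scripts were tested on simulated data. Python 3.11.15, numpy 2.4.6, pandas 2.3.3, scipy 1.17.1 and matplotlib 3.10.9 were used.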

Additional observations from a re-analysis of the deposited data

How the results depend on the processing

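Of 373 alternative values, 18 moved by more than their counting interval, 1 SD, 1.5 times the count or 0.2 of rho, 355 did not, and 0 reversed. A reversal could be counted only for differences by Gapdh Ct and for rho with the assays named as most like each gene. Where Gapdh, actin and Hprt were all detected (63 cells), the shares were 77.8% for Msi1 and 36.5% for Nes. Without the 10% of cells with most genes detected, 11 cells carried all 3 genes in place of 17. Minus the Ct of Gapdh, the mean Ct was 6.29 for Msi1, 9.45 for Nes and 7.01 for Ncam1, which follows from the scale. The rho of Msi1 and Nes was 0.48 without the fit on genes detected and 0.49 in the 22 cells with both, and the cause was not tested. Of the values moved, 10 were rho of a gene with an assay named as most like it, among them 0.14 in place of 0.34 for Nes and Krt18 in cells with both. Ct limits of 24 and 26 and leaving out cell 67 or the 8 cells with little Gapdh moved none of the main values. For counts and mean Ct of the 3 genes this was largely fixed in advance. Their highest Ct was 24.4, so a limit of 26 could change no call of theirs and a limit of 24 only 1. Differences in share of other assays were not recomputed at these limits. Calls with a Ct of 24 or above made up 72.4% of those of Mki67, 55.2% of Hoxa11 and 39.5% of Sox9. The median over 83 assays was 2.35%. None of the 8 cells, cell 67 among them, carried any of the 3 genes, so leaving them out could not change these counts or means. Such values are included in the 355, so that number does not measure robustness. No paired analysis was possible because all cells form 1 group. The number of animals is not given, and a gene present below the limit of the assay cannot be told from an absent one.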

Other observations

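Cells with Msi1 but not Ncam1 and cells with Ncam1 but not Msi1 differed in Wnt7a at similar median depth, a comparison chosen after the values were seen. Wnt7a already had the largest difference in share for Msi1 over the same cells (50.5 points). The comparison therefore restates that result and adds no independent support. How many other assays differ as much between these sets was not counted. Wnt7a was detected in 15 of 19 cells with Msi1 but not Ncam1 (78.9%) and in 3 of 11 cells with Ncam1 but not Msi1 (27.3%). The 2 sets detected medians of 55 and 53 of the other 93 assays. Emx2 was found in 8 of the 19 and in 2 of the 11. In the 39 cells with both genes Wnt7a was found in 28 (71.8%) and Emx2 in 26 (66.7%), and in the 27 cells with neither, Wnt7a in 6 (22.2%) and Emx2 in 4 (14.8%). Epcam was found in 17 of the 19 and 10 of the 11, and Krt18 in all 19 and all 11.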
